A study of Rattus norvegicus with 232 samples.

Results

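The 8 genes described here encode the core of the rat MHC class II antigen presentation machinery. They are Cd74, Ciita, RT1-Ba, RT1-Bb, RT1-Da, RT1-Db1, RT1-DMa and RT1-DMb, chosen by name as the invariant chain, the master transactivator, both chains of the RT1-B and RT1-D molecules and both chains of the peptide editor DM. All 8 were found among the 20859 genes of the v7.1 RefSeq brain table, and all 8 again among the 18309 genes of the v5 Ensembl 96 brain table. The RT1 haplotype of each strain is not part of the sample labels, so no haplotype was assigned and values are given by strain.

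The study sequenced ribosome-depleted total RNA from whole brain of rats of the Hybrid Rat Diversity Panel, which the labels give as untreated and, wherever they state a sex, as male. In the v7.1 table, 214 libraries came from 197 animals of 74 strains: 30 strains of the HXB/BXH recombinant inbred family, derived from BN-Lx/Cub and SHR/OlaIpcv, 19 strains of the FXLE/LEXF family, derived from F344/Stm and LE/Stm, and 25 classic inbred strains that include all 4 progenitors. The libraries of an animal sequenced more than once were averaged, which left 54 strains with 3 animals, 15 with 2 and 5 with 1. The v5 table holds 132 animals of 45 strains, without FXLE/LEXF strains. By the paper, HXB/BXH rats and their progenitors were kept in Prague, and their brains were shipped in liquid nitrogen. The other inbred strains it studied came from Charles River or Envigo, and their brains went into RNAlater. Between these sets, strain cannot be told apart from colony and tissue handling. For strains outside the paper's set, such as BN/NHsdMcwi, the paper does not give the handling.

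MHC class II molecules are pairs of an alpha and a beta chain that carry peptides from endocytosed protein to the surface of antigen-presenting cells, where CD4 T cells read them. Newly made pairs bind the invariant chain Cd74, which blocks the peptide groove and steers the pair to endosomes; there the DM heterodimer removes the last invariant chain fragment and helps load peptide. Ciita is recruited to class II promoters by the RFX, CREB and NF-Y factors and is needed for their transcription. In healthy brain, class II RNA comes mainly from perivascular, meningeal and choroid plexus macrophages and dendritic cells, and from a minor share of microglia.

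On the rn6 assembly, 5 of the 6 RT1 genes had a position in the v5 annotation, all on chromosome 20. RT1-Bb spanned 4043741 to 4097190 on the plus strand, an interval that contains RT1-Ba at 4066132 to 4070721 on the minus strand, and RT1-Da lay at 4127644 to 4132616, also on the minus strand. RT1-DMb lay at 5227045 to 5234290 and RT1-DMa at 5240975 to 5241496, both on the minus strand, the latter a model so short that it can hold only a fragment of the gene. Cd74 lay on chromosome 18 at 56071478 to 56080849 and Ciita on chromosome 10 at 5213350 to 5251809. On the newer GRCr8 assembly, the RefSeq gene order across the class II region is RT1-Da, RT1-Db2, Arrb2-ps, RT1-Db1, RT1-Ba, RT1-Bb, RT1-DOb, Tap2, Psmb8, Tap1, Psmb9, RT1-DMb and RT1-DMa.

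Class II promoters are recognised through a short X box element followed by a Y box, the CCAAT motif bound by NF-Y. RefSeq promoter sequence on GRCr8 was available for 6 of the 8 members. It is printed here for the RT1 genes among them. Each line gives the 125 bases of the sense strand from 130 to 6 bases before the gene start. Capitals mark ACNGATG (the core of the X box) and ATTGG (the reverse complement of CCAAT). They mark the pair where ATTGG started 20 to 50 bases after the start of ACNGATG, and ATTGG alone on the sense strand in RT1-Ba.
RT1-Da (chr20:4515285-4515409, plus strand): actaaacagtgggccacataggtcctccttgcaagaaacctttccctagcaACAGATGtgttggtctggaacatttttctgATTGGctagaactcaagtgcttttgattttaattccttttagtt
RT1-Db1 (chr20:4560168-4560292, minus strand): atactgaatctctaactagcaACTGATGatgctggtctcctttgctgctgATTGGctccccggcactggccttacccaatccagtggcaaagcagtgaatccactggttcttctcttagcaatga
RT1-Ba (chr20:4576927-4577051, plus strand): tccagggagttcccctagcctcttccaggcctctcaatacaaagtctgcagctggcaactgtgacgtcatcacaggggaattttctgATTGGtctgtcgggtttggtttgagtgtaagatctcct
RT1-Bb (chr20:4604124-4604248, minus strand): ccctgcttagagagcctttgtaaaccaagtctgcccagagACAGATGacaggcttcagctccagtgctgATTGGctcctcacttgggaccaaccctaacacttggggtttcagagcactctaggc
RT1-DMa (chr20:4712341-4712465, minus strand): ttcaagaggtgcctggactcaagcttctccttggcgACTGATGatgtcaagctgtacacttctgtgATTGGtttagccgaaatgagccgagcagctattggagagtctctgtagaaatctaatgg

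The pair of motifs stood on 1 strand in 4 of the 6 promoters, those of RT1-Da, RT1-Db1, RT1-Bb and RT1-DMa. From the first base of ACNGATG to the first base of ATTGG the spacing was 29 bases in RT1-Db1 and RT1-Bb and 30 bases in RT1-Da and RT1-DMa, and the pair began 79 to 109 bases before the gene start. Searched on both strands in windows from 250 bases before to 50 after the start, ACNGATG was present in 10.2% and ATTGG in 37.5% of 33469 RefSeq promoters, and the ordered pair with starts 20 to 50 bases apart in 85 of them, or 0.254%. The Cd74 promoter held ATTGG on the opposite strand only. These matches are letters in a window and not measured binding. Other forms of the X box were not searched for, so a promoter without ACNGATG, such as that of RT1-Ba, is not shown to lack one.

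Values throughout are the deposited log2 expression values, so a difference of 1 is a doubling. Levels are compared between strains and not between genes, except where a low level is pointed out. A strain was called different when the Benjamini-Hochberg adjusted p of limma over all genes of the table was below 0.05. The depth of the libraries is unknown because the tables hold no counts. Whole brain contains few class II positive cells, and fewer such cells and less RNA per cell cannot be told apart in these samples. RT1 genes are also highly polymorphic and have close paralogs, so a difference in RNA level and a difference in how well a strain's reads aligned to a gene model cannot be told apart; RT1-Db1 has the paralog RT1-Db2 beside it.

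Over all 74 strains, 7 of the 8 members differed between strains (limma moderated F test), where 37.3% of all genes did. The share of variance between animals that strain accounted for (R2) was 0.83 for RT1-Ba, Cd74 and RT1-Bb, against a median over all genes of 0.45. RT1-Da (0.80) and RT1-Db1 (0.74) followed, and the chains of DM were lower, at 0.66 for RT1-DMa and 0.64 for RT1-DMb. Ciita was the exception, with an R2 of 0.42 and an adjusted p of 0.238 (limma). This fit, which also gave the tests within panels, held no term for batch. The libraries of a strain came from few batches, so strain and batch are partly mixed in these values. For scale, 1 SHR/OlaIpcv animal had an SD of 0.34 for Cd74 over libraries of 12 batches.

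Cd74, the invariant chain, ranged from 8.14 in HXB25/Ipcv to 10.25 in the only BUF/MnaMcwi animal, a span of 2.12, with a median strain mean of 8.89 and a pooled within-strain SD of 0.24. The 3 HXB25/Ipcv animals had 7.88, 8.26 and 8.29, and the 3 BN/NHsdMcwi animals, the strain next below BUF/MnaMcwi, had 9.73, 9.80 and 10.21. These groups were far from overlapping, although they shared no batch. The order of strains between them was a continuum. Of the 73 gaps between neighbouring strain means, 1 exceeded 0.20, the standard error of a difference between 2 strains of 3 animals.

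RT1-Ba and RT1-Bb, the alpha and beta chains of the RT1-B molecule, had their highest strain means in different strains. RT1-Ba ranged from 5.87 in LEXF10B/Stm to 8.22 in BUF/MnaMcwi, with BN/NHsdMcwi again second at 8.01. RT1-Bb ranged from 5.08 in LEXF7B/Stm to 7.06 in BDIX/NemOdaMcwi, whose 2 animals had 6.92 and 7.19. The BUF/MnaMcwi animal with the highest RT1-Ba had an RT1-Bb value of 5.86, below the median strain mean of 5.88.

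The difference RT1-Ba minus RT1-Bb within a library sets this contrast apart from the total amount of class II RNA. Its median over strains was 0.84, with an SD of 0.33 between strains and 0.25 within them. It was 2.36 in the BUF/MnaMcwi animal and -0.18 in BDIX/NemOdaMcwi, where the 2 animals had -0.21 and -0.15. The next strains inward were HXB31/Ipcv at 1.48 and LEXF6B/Stm at 0.08. The same 2 strains were extreme for RT1-Da minus RT1-Db1, at 1.59 in the BUF/MnaMcwi animal and 0.15 in BDIX/NemOdaMcwi against a median of 0.88, although the 2 BDIX/NemOdaMcwi animals were far apart at -0.28 and 0.59. These strains were singled out after their values were seen, and whether allelic sequence changed the alignment of their reads was not tested.

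RT1-Da and RT1-Db1, the chains of the RT1-D molecule, spanned 6.56 in HXB25/Ipcv to 8.31 in BUF/MnaMcwi and 5.76 in HXB25/Ipcv to 7.12 in BXH10/Cub. The 3 BXH10/Cub animals were close together for both genes, at 7.98, 8.01 and 8.13 for RT1-Da and with a mean of 7.12 and a highest value of 7.14 for RT1-Db1. The 3 HXB25/Ipcv animals had 6.36, 6.63 and 6.69 for RT1-Da and 5.52, 5.72 and 6.04 for RT1-Db1, below every BXH10/Cub animal.

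RT1-DMa and RT1-DMb spanned less and were ordered differently. RT1-DMa ranged from 7.63 in SHR/OlaIpcv to 8.94 in HXB29/Ipcv, with a within-strain SD of 0.28, and none of its 73 gaps between neighbouring strains exceeded the standard error of 0.23. RT1-DMb ranged from 7.21 in BDIX/NemOdaMcwi (2 animals) to 8.12 in FXLE15/Stm. BDIX/NemOdaMcwi was thus highest of all strains for RT1-Bb and lowest for RT1-DMb.

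Ciita had the narrowest span, with strain means of 2.86 to 3.47, an SD of 0.13 between strain means and a within-strain SD of 0.19. It was not called in any panel (adjusted p of 0.391 in HXB/BXH, 0.363 in FXLE/LEXF and 0.318 in the classic inbred strains, limma), and a p above the threshold does not show that strains were alike. Its level was also the lowest of the members, far below the library medians of 8.18 to 8.42, and no filter on low values was used. The part of this low level in its narrow span was not tested.

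**Figure D1:**
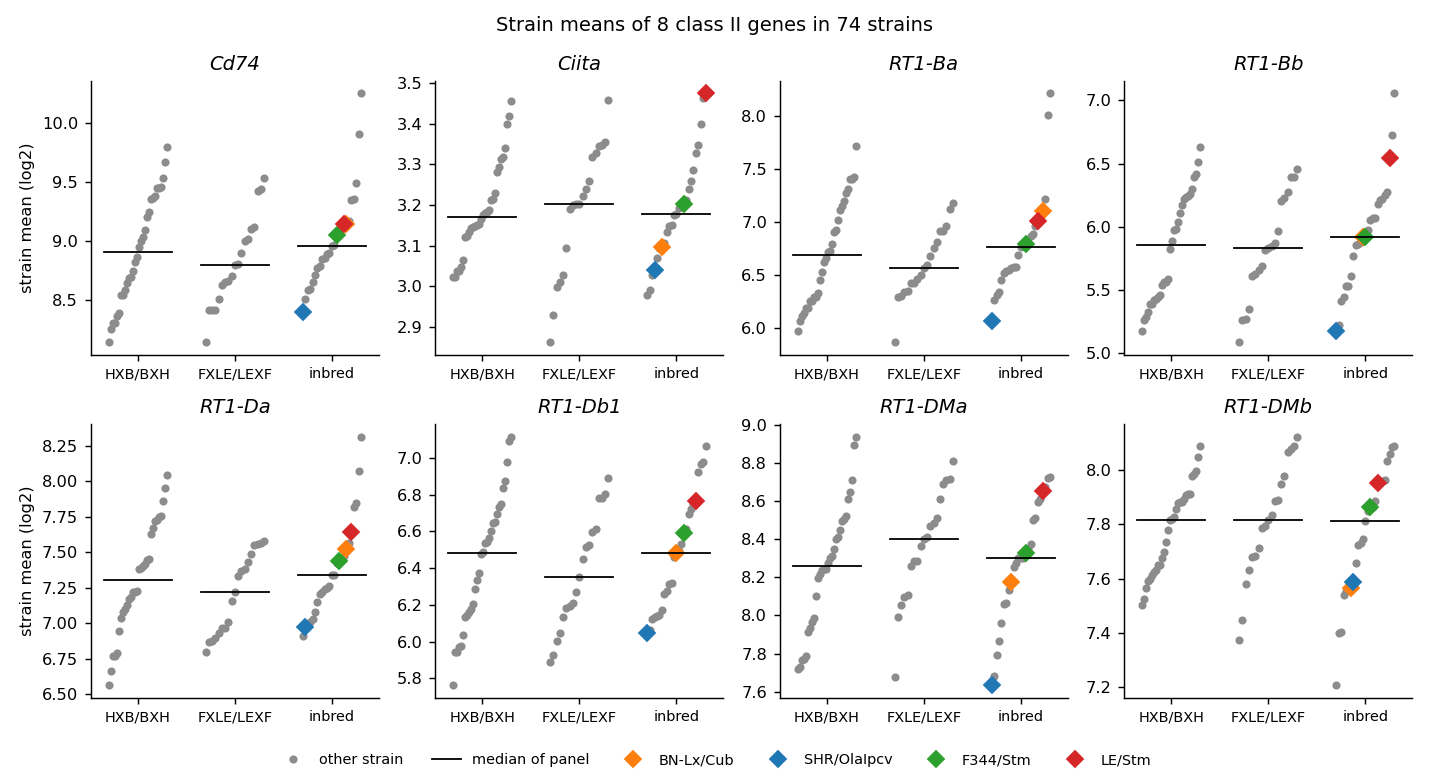
Strain means (log2) of the 8 members in the HXB/BXH, FXLE/LEXF and classic inbred strains of the v7.1 table; each point is a strain, sorted by its mean within a panel, the line is the panel's median, and diamonds mark the 4 progenitors. Means form a continuum in most panels, BN/NHsdMcwi and BUF/MnaMcwi stand above the other inbred strains for Cd74 and RT1-Ba, and SHR/OlaIpcv is lowest of the inbred strains for 5 members (Cd74, RT1-Ba, RT1-Bb, RT1-Db1, RT1-DMa).

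Strain means were next described with Gaussian mixtures of 1 to 3 clusters, chosen by the Bayesian information criterion. Over all 74 strains each of the 8 members was described by 1 cluster, while 9.23% of all genes had more than 1. Within panels, 5 member distributions split. In the HXB/BXH family RT1-Bb fell into 15 strains at 5.17 to 5.82 and 15 strains at 5.88 to 6.63, and RT1-DMb into 13 strains at 7.50 to 7.74 and 17 at 7.78 to 8.09, where 11.7% of all genes had more than 1 cluster. In both cases the gap between clusters was smaller than the standard error of a difference between strains, and BXH8/Cub and BXH3/Cub lay at the RT1-Bb boundary with 5.82 and 5.88. With a gain over 6 in the criterion required, RT1-Bb still split and RT1-DMb did not, and the same held with unequal variances.

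In the FXLE/LEXF family RT1-Da split into 9 strains at 6.80 to 7.16 and 10 at 7.22 to 7.58 (14.7% of all genes had more than 1 cluster), but had 1 cluster with that gain required and 3 with unequal variances. In the classic inbred strains Cd74 and RT1-Ba each set 2 strains, BN/NHsdMcwi and BUF/MnaMcwi, apart from the other 23 (12.6% of all genes). RT1-Ba kept 2 clusters with a gain over 6 required, with unequal variances and without strains of 1 animal, whereas Cd74 had 1 cluster under each of these 3 settings. The last setting leaves out BUF/MnaMcwi, so it cannot show these 2 strains as a cluster. For RT1-Ba that gap was 0.79, from 7.22 in SS/JrHsd to 8.01 in BN/NHsdMcwi, against a standard error of 0.20. For Cd74 it was 0.42, from 9.49 in LH/MavRrrc to 9.91 in BN/NHsdMcwi. The mean level of 12 microglial markers was 9.47 in BN/NHsdMcwi and 9.60 in BUF/MnaMcwi, the latter the highest of all strains, where the lowest strain had 9.02. The part of microglial content in these high values was not tested.

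In the HXB/BXH family (88 animals), 7 of 8 members differed between strains, against 26.5% of all genes, with adjusted p-values from 5.67e-22 for RT1-Ba to 0.00537 for RT1-DMb (limma). In the v5 data, 5 of 8 did, against 17.5%. BXH10/Cub had the highest mean of the family for Cd74 (9.80), RT1-Ba (7.72), RT1-Bb (6.63), RT1-Da (8.04) and RT1-Db1 (7.12). At the other end HXB25/Ipcv, BXH6/Cub and HXB4/Ipcv were the 3 lowest for RT1-Ba, RT1-Da and RT1-Db1, and with HXB24/Ipcv (8.25) the 4 lowest for Cd74, at 8.14, 8.30 and 8.30.

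The DM genes did not follow that order. HXB25/Ipcv, lowest for Cd74, RT1-Da and RT1-Db1, had the highest RT1-DMb of the family (8.09) and an RT1-DMa of 8.49, above the family median of 8.26. HXB4/Ipcv likewise had a low Cd74 and an RT1-DMa of 8.71, among the 3 highest of the 30. The reverse was seen in HXB31/Ipcv and HXB15/Ipcv, whose Cd74 means of 9.53 and 9.67 were exceeded only by BXH10/Cub in the family, with RT1-DMa means of 7.93 and 7.99. HXB31/Ipcv and HXB21/Ipcv also had RT1-Bb in the low cluster (5.43 and 5.17) with Cd74 above the family median.

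**Figure D2:**
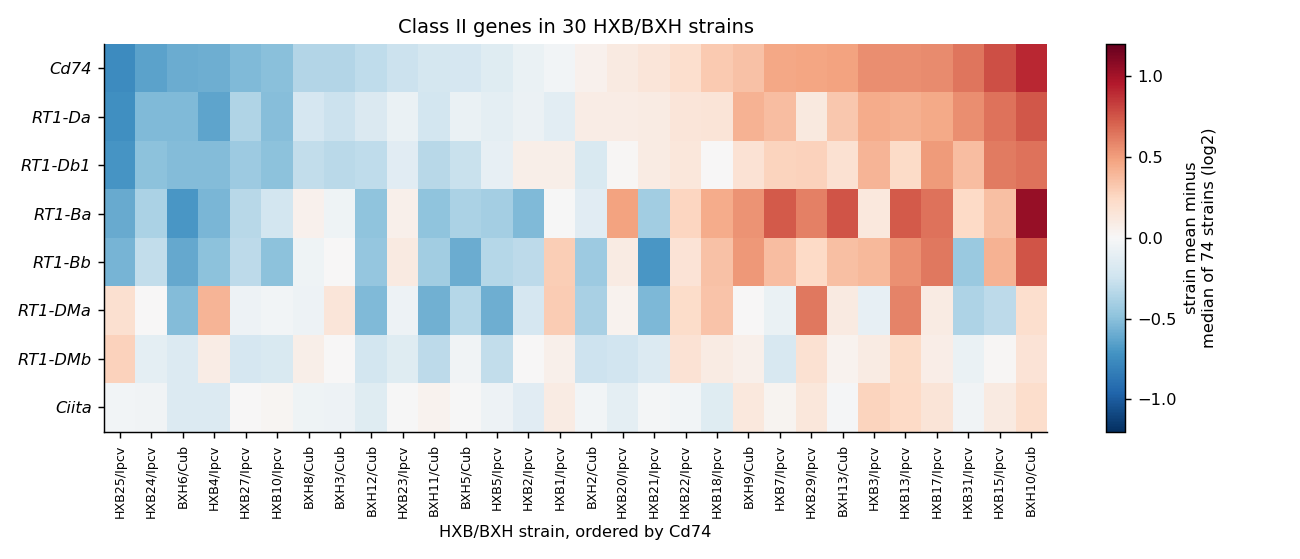
Strain means of the 8 members in the 30 HXB/BXH strains, each minus that gene's median over 74 strains (log2, color scale), with strains ordered by Cd74. Cd74, RT1-Da and RT1-Db1 change together from HXB25/Ipcv to BXH10/Cub, RT1-Ba and RT1-Bb follow with exceptions such as HXB31/Ipcv and HXB21/Ipcv, and RT1-DMa and RT1-DMb show another order.

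Correlations between members across strains gave the same grouping as a description (Pearson r, no test; members of the class II region are linked, and all values of a strain share its libraries). Over 74 strain means Cd74 correlated at 0.92 with RT1-Da, 0.88 with RT1-Db1, 0.85 with RT1-Ba and 0.67 with RT1-Bb, and RT1-DMa with RT1-DMb at 0.73. Cd74 with RT1-DMa and RT1-DMb gave 0.34 and 0.27, and the 28 pairs had a median of 0.48. In the 30 HXB/BXH strains Cd74, on chromosome 18, correlated at 0.98 with RT1-Da and 0.97 with RT1-Db1, on chromosome 20, and RT1-Da with RT1-DMa, which lies in the same region, at 0.07.

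Animals of the same strain also covaried. The deviations of animals from their strain means correlated at 0.70 for Cd74 with RT1-Bb, 0.67 with RT1-Da, 0.66 with RT1-Db1 and 0.65 with RT1-Ba, with a median of 0.40 over the 28 pairs and a lowest value of 0.09. Within-strain deviations share dissection and batch, so they describe the brains and libraries as well as the genes.

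**Figure D3:**
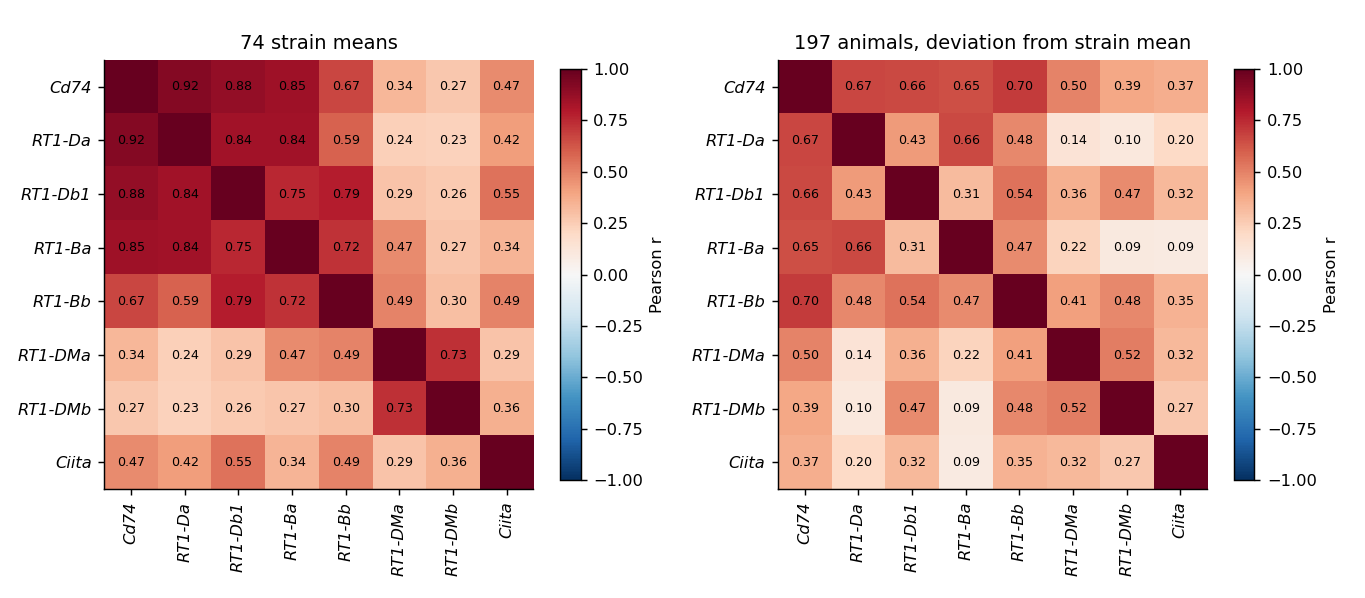
Pearson r between the 8 members over 74 strain means (left) and over the deviations of single animals from their strain means (right). Cd74, RT1-Da, RT1-Db1 and RT1-Ba form one group over strains at 0.75 to 0.92, RT1-DMa and RT1-DMb pair at 0.73, and within strains the highest value is 0.70.

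Among all genes, those with strain means most like Cd74 were RT1-Da, RT1-Db1 and RT1-Ba, by the rule of the 3 highest r over 74 strains. For RT1-Bb they were RT1-Db1 (0.79), RT1-Ba (0.72) and the class I gene RT1-A3 (0.72). For Ciita they were RT1-Db1 (0.55), Acvrl1 (0.54) and Myo1f (0.54). For RT1-DMa they were Wdr46 (0.75), G4 (0.74) and RT1-DMb (0.73), of which Wdr46 and G4 lie on chromosome 20 at 5358931 and 5113213, on either side of the DM genes, and in the HXB/BXH strains alone Wdr46 reached 0.96. Within strains, by contrast, Cd74 was most like Ptgds (0.74), Fxyd5 (0.71) and Pcolce (0.71). Ptgds encodes the prostaglandin D synthase abundant in leptomeninges and choroid plexus, and Pcolce a collagen-processing protein of connective tissue. Ciita was within strains most like Nup62 (0.46), Selenon (0.46) and Lrfn4 (0.45), none of them a member. Over the HXB/BXH strain means it was most like RT1-Bb (0.65), RT1-Db1 (0.62) and Cd74 (0.61).

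The progenitors of the HXB/BXH family were compared animal by animal. For Cd74 the 3 BN-Lx/Cub animals had 9.08, 9.10 and 9.26 and the 2 SHR/OlaIpcv animals 8.16 and 8.62. For RT1-Ba, BN-Lx/Cub had 7.00, 7.02 and 7.30 and SHR/OlaIpcv 5.84 and 6.30. For RT1-Bb, BN-Lx/Cub had 5.67, 5.96 and 6.12 and SHR/OlaIpcv 4.98 and 5.35. The groups did not overlap for any of these genes, all higher in BN-Lx/Cub. They also did not overlap for RT1-Da, RT1-Db1 and RT1-DMa, which were not called (below). With 3 and 2 animals non-overlap alone carries little weight, and its share over all genes was not computed.

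By limma, 3 of 8 members were called between BN-Lx/Cub and SHR/OlaIpcv, where 4.51% of all genes were, and each of the 3 was higher in BN-Lx/Cub: RT1-Ba by 1.04 (SE 0.23, adjusted p = 0.00101), Cd74 by 0.75 (SE 0.22, adjusted p = 0.026) and RT1-Bb by 0.75 (SE 0.22, adjusted p = 0.0287). RT1-Da (0.55), RT1-DMa (0.54) and RT1-Db1 (0.44) were not called, with adjusted p-values of 0.0887, 0.219 and 0.275, and the values for Ciita and RT1-DMb were 0.06 and -0.02. In the v5 table, which has 3 animals in each of these strains, RT1-Da (0.79, adjusted p = 0.000273) and RT1-Db1 (0.64, adjusted p = 0.00715) were called as well, so that 5 of 8 members were, against 4.37% of all genes.

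Blood content moved with this contrast. All 4 blood markers were called lower in BN-Lx/Cub, with a median difference of -1.32, and their mean level in SHR/OlaIpcv, 13.46, was the highest of the 74 strains, against 12.15 in BN-Lx/Cub. The 12 microglial markers had means of 9.20 in BN-Lx/Cub and 9.18 in SHR/OlaIpcv, and none was called (limma; 4 of 12 at an unadjusted p under 0.05). Of 7 border macrophage markers 1 was called, Pf4, lower in BN-Lx/Cub by -0.74 (adjusted p = 0.0366, limma), and the means of the list were 6.26 in BN-Lx/Cub and 6.33 in SHR/OlaIpcv. The part of blood or of these cells in the class II difference was not tested.

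The v7.1 data hold 12 libraries of the first SHR/OlaIpcv animal, each from another batch, and 6 of the fourth, which gives the technical spread of each member. Over its 12 libraries, animal 1 ranged from 7.62 to 8.83 for Cd74 (SD 0.34), from 4.52 to 5.62 for RT1-Bb (SD 0.36) and from 6.50 to 7.01 for RT1-Da (SD 0.17). For Cd74 and RT1-Bb this spread of 1 animal over libraries was larger than the pooled spread between animals of a strain (0.24 each), and for RT1-Da it was smaller (0.22 between animals). In the 3 batches that held both animals, SHR/OlaIpcv 4 minus SHR/OlaIpcv 1 was 0.03, 0.10 and 0.24 for Cd74 and -0.23 to 0.01 for RT1-Bb.

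Within batches, BN-Lx/Cub could be compared with SHR/OlaIpcv 1 only. For Cd74, RT1-Ba and RT1-Bb that animal had the lower average of the 2 SHR/OlaIpcv animals, but the averages cover different batches. In the batches that held both, SHR/OlaIpcv 4 minus SHR/OlaIpcv 1 was -0.23 to 0.01 for RT1-Bb. The values within batches are therefore not directly comparable with the pooled ones. The 4 BN-Lx/Cub libraries minus the SHR/OlaIpcv 1 library of their own batch gave 1.00 to 1.25 for Cd74, 1.13 to 1.54 for RT1-Ba, 0.92 to 1.32 for RT1-Bb, 0.76 to 1.10 for RT1-Da, 0.51 to 0.97 for RT1-Db1 and 0.29 to 0.73 for RT1-DMa, all above 0. For RT1-DMb they gave -0.38 to 0.43 and for Ciita -0.04 to 0.35. A fit with batch as a covariate used single libraries, 18 from the 2 SHR/OlaIpcv animals and 4 from BN-Lx/Cub, with the animal as a block (estimated correlation 0.22), so that repeat libraries of the same animals contribute to its p-values, which may be too small. In that fit, which called 3224 of 20859 genes, Cd74 was higher in BN-Lx/Cub by 1.02 (adjusted p = 3.7e-06), RT1-Da by 0.82 (adjusted p = 3.4e-05) and RT1-Db1 by 0.63 (adjusted p = 0.0134, limma). Leaving out every animal numbered 1, which leaves SHR/OlaIpcv with 1 animal, brought the Cd74 difference to 0.56 and the RT1-Ba difference to 0.85, with adjusted p-values of 0.784 and 0.194.

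BN-Lx/Cub is a congenic derivative of Brown Norway that carries the luxate mutation, and it was compared with BN/NHsdMcwi, the substrain closest to the reference genome. The 3 BN/NHsdMcwi animals had 7.72, 7.89 and 8.43 for RT1-Ba and 6.64, 6.74 and 6.81 for RT1-Bb, above all 3 BN-Lx/Cub animals. By limma, BN-Lx/Cub was lower for RT1-Ba by -0.90 (adjusted p = 0.0137) and for RT1-Bb by -0.81 (adjusted p = 0.0326), 2 of 8 members against 0.278% of all genes, and Cd74 gave -0.76 (adjusted p = 0.0536). None of the 3 BN/NHsdMcwi libraries shared a batch with BN-Lx/Cub. With batch as a covariate over single libraries the differences were -0.52 for RT1-Ba and -0.42 for RT1-Bb, with adjusted p-values of 0.299 and 0.412, and 0 members were called without the animals numbered 1 or without those numbered 2. The microglial markers moved in the same direction, with a mean level of 9.47 in BN/NHsdMcwi (animals 9.42 to 9.50) and 9.20 in BN-Lx/Cub (9.14 to 9.24), while border macrophage markers had means of 6.26 in both strains and blood markers 11.96 and 12.15. The part of these cells in the difference was not tested.

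SHR/OlaIpcv was also compared with WKY/NCrl, the normotensive strain bred from the same Wistar stock. By the paper these strains differ in colony and tissue handling as well (above), which cannot be told apart from strain here. For RT1-Bb the WKY/NCrl animals had 6.05, 6.28 and 6.42, against 4.98 and 5.35 in SHR/OlaIpcv. For RT1-DMa they had 8.47, 8.73 and 8.82, against 7.58 and 7.69. By limma, SHR/OlaIpcv was lower for RT1-Bb by -1.08 (adjusted p = 0.00125) and for RT1-DMa by -1.04 (adjusted p = 0.0165), 2 of 8 members against 0.825% of all genes. The other 6 members were also lower in SHR/OlaIpcv in the fit, by -0.31 for Ciita to -0.71 for RT1-Ba, without being called, and without the animals numbered 1 the RT1-Bb and RT1-DMa differences were -0.88 and -0.96, with adjusted p-values of 0.520 and 0.469.

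Within batches, WKY/NCrl minus SHR/OlaIpcv 1 was 1.22 to 1.46 for Cd74, 1.52 to 1.72 for RT1-Bb, 1.17 to 1.64 for RT1-DMa and 0.54 to 0.87 for RT1-DMb over 3 libraries. For Cd74, RT1-Bb and RT1-DMa the 2 SHR/OlaIpcv 1 libraries of these batches lay below the median of its 12, at 7.62 and 7.63 for Cd74, where the 12 had a median of 8.17, and 4.52 and 4.71 for RT1-Bb, with a median of 4.91. For RT1-DMa they had 6.83, the lowest of the 12, and 7.56, with a median of 7.66. By the title's batch, 1 of the 3 WKY/NCrl libraries shared a batch with SHR/OlaIpcv 1. In the same fit over single libraries (18 of SHR/OlaIpcv and 3 of WKY/NCrl, 4321 of 20859 genes called), all 8 differences were called, with the same limit on the p-values, from -0.53 for Ciita (adjusted p = 0.0135) to -1.70 for RT1-Bb (adjusted p = 4.49e-11, limma). Microglial markers moved in the same direction, with a mean level of 9.56 in WKY/NCrl against 9.18 in SHR/OlaIpcv and no overlap between animals (9.51 to 9.60 against 9.13 to 9.24), although none of the 12 was called (median difference -0.41). Blood markers were higher in SHR/OlaIpcv, at 13.46 against 12.62. The part of either list in the class II difference was not tested. Batch labels of WKY/NCrl libraries conflict between title and characteristics for 2 of the 3 libraries, and with the title's batch the Ciita and RT1-Da differences were not called (adjusted p = 0.274 and 0.164).

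**Figure D4:**
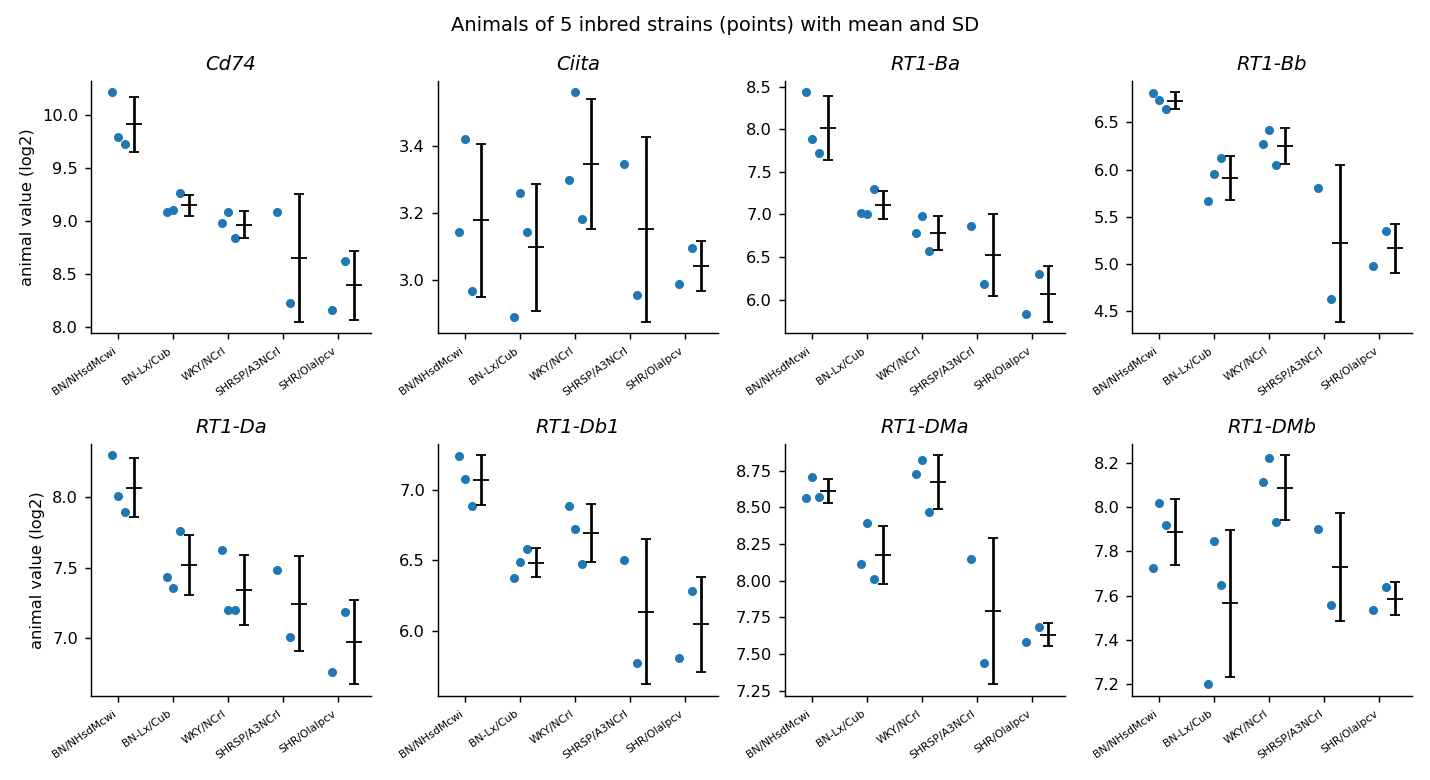
Values of every animal (points, log2) of BN/NHsdMcwi, BN-Lx/Cub, WKY/NCrl, SHRSP/A3NCrl and SHR/OlaIpcv for the 8 members, with the mean and SD of each strain beside them (2 or 3 animals a strain). The BN/NHsdMcwi animals lie above the SHR/OlaIpcv animals for each member except Ciita. This pair was not tested, and the share of all genes without overlap was not computed. Within batches, BN/NHsdMcwi minus SHR/OlaIpcv 1 was -0.16 for RT1-DMb (1 library), and minus SHR/OlaIpcv 4 it was 0.04 to 0.46 (3 libraries). The 2 SHRSP/A3NCrl animals are far apart for members such as Cd74 and RT1-Bb.

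No member was called in the other pairs of related strains with animals as replicates. These were LEW/Crl and LEW/SsNHsd (0.024% of all genes called), F344/NCrl and F344/NHsd (0.0144%), F344/Stm and F344/NHsd (0.0575%), SHR/OlaIpcv and SHRSP/A3NCrl (0.125%), SS/JrHsd and SR/JrHsd (0.988%), ACI/SegHsd and COP/CrCrl (0.575%) and ACI/SegHsd and DA/OlaHsd (0.475%). In SHRSP/A3NCrl the 2 animals had 8.23 and 9.08 for Cd74 and 4.64 and 5.81 for RT1-Bb, a spread wider than the pooled within-strain SD. The count for SHR/OlaIpcv and SHRSP/A3NCrl depended on the setting: it was 3 with the batch characteristic over single libraries (601 of 20859 genes called), 0 with the title's batch (107 genes), 3 in v5 (1776 of 18309 genes) and 6 in v5 without F344/NCrl 2 and SHRSP/A3NCrl 1 (3684 genes). By the batch characteristic, 1 SHRSP/A3NCrl library shared a batch with SHR/OlaIpcv 1, and by the batch in the title none did. That library was higher for all 8 members, by 1.45 for Cd74, 1.44 for RT1-Ba and 1.10 for RT1-Bb. The share of all genes that were higher in that library is not given here. The SHR/OlaIpcv library of that batch had 7.63 for Cd74, near the lowest of the 12 libraries of its animal, which ran from 7.62 to 8.83. At an unadjusted p under 0.05, limma gave Ciita in the ACI/SegHsd and DA/OlaHsd pair and 0 members in each of the others. F344/Stm and LE/Stm had no such comparison, because LE/Stm held 1 animal, whose spread the fit takes from the other strains, and that animal carried all 10 liver markers at a higher level (median difference -9.29, F344/Stm minus LE/Stm). In that fit 0.796% of all genes and 0 members were called, with 1 member at an unadjusted p under 0.05 (limma), RT1-Bb.

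In the FXLE/LEXF family (43 animals), 6 of 8 members differed between strains, against 7.47% of all genes, and RT1-DMa (adjusted p = 0.122) and Ciita were not called. Without the animals numbered 2 the count was 2 of 8, and the count of all genes called went from 1558 to 514 of 20859. Cd74 ranged from 8.14 in LEXF7B/Stm to 9.53 in FXLE15/Stm. LEXF7B/Stm, LEXF10A/Stm, LEXF10B/Stm and LEXF9/Stm were the 4 lowest strains for RT1-Bb, at 5.08, 5.25, 5.26 and 5.35. FXLE20/Stm was highest for RT1-Ba (7.18) and RT1-Bb (6.46), and FXLE15/Stm for Cd74, RT1-Da (7.58), RT1-Db1 (6.89) and RT1-DMb (8.12).

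For RT1-Da, RT1-Bb, Cd74, RT1-Ba, RT1-Db1 and RT1-DMb most strains of this family lay below both progenitors. For RT1-Da, F344/Stm had 7.44 and the only LE/Stm animal 7.64, and 14 of 19 strains lay below both and 0 above both. For RT1-Bb, with progenitors at 5.92 and 6.54, 12 strains lay below both and 0 above. For Cd74, with progenitors at 9.05 and 9.14, 14 lay below both and 3 above, and these nearly equal means leave little range between them. For RT1-Ba and RT1-Db1 13 lay below both, with 2 and 4 above, and for RT1-DMb 11, with 5 above. For RT1-DMa, with progenitors at 8.33 and 8.66, 8 lay below both, 7 between and 4 above. The LE/Stm animal also carried 10 liver markers at a mean level of 17.63, where no other strain exceeded 9.54, and the part of this in its class II values was not tested. None of the 43 FXLE/LEXF libraries shared a batch with either progenitor, so family and batch cannot be told apart in these counts.

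In the HXB/BXH family many strain means lay outside the range of the progenitors. For RT1-Ba 20 of 30 strains lay between the progenitors, 9 above BN-Lx/Cub and 1 below SHR/OlaIpcv. For Cd74 13 lay between, 11 above and 6 below, and for RT1-Bb 16 lay between, 14 above and 0 below. For RT1-Db1 9 lay between, 15 above and 6 below, and for RT1-DMa 10 lay between, 20 above and 0 below. The progenitor means of RT1-DMb, 7.59 and 7.57, were nearly equal, so its counts against them carry little information. Of the 88 HXB/BXH libraries, 33 shared a batch with a BN-Lx/Cub library and 78 with an SHR/OlaIpcv library, and the part of batch in these counts was not tested.

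Classic inbred strains (66 animals) differed for 7 of 8 members, against 23.2% of all genes, with adjusted p-values from 3.14e-14 for RT1-Bb to 0.000242 for RT1-DMa (limma). SHR/OlaIpcv was lowest and BN/NHsdMcwi among the 2 highest for Cd74, RT1-Ba and RT1-Bb. WAG/RijCrl was second lowest for Cd74 (8.51), RT1-Ba (6.26) and RT1-Db1 (6.06).

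For the 3 members called between the HXB/BXH progenitors, each of the 30 strains was assigned to the nearer progenitor mean, as a description of segregation. Cd74 was nearer BN-Lx/Cub in 17 strains, RT1-Ba in 17 and RT1-Bb in 19. RT1-Ba and RT1-Bb, neighbours on chromosome 20, were assigned alike in 26 of 30 strains. Cd74 on chromosome 18 was assigned like RT1-Ba in 24 and like RT1-Bb in 22.

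The same assignment was made for every other gene called between the progenitors that had an rn6 position. Of the 940 genes called, those without a position were left out, so the ranks below hold for a part of them. For Cd74 the genes most often assigned alike were Txlnb in 27 of 30 strains and Fuca2 in 26, genes that start at 12897533 and 7658890 on chromosome 1 (rn6). Both were lower in BN-Lx/Cub than in SHR/OlaIpcv, by -0.93 and -0.54, opposite to Cd74. Genes outside the fixed lists were named here after their values were seen. The 16 genes of chromosome 18, which carries Cd74 itself, were assigned alike in 10 to 23 strains, and the 4 genes within 1 Mb of the class II region in 11 to 16. On chromosome 1 outside the interval described below, 53 genes were assigned alike in 10 to 23. The 407 genes of chromosomes other than 1, 18 and 20 were assigned alike in 7 to 23, with a median of 14.

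RT1-Ba was also most often assigned like Txlnb (25 strains) and Fuca2 (24), followed by Lgals5 on chromosome 10 and Gng5 on chromosome 1 (23 each) and by Fkbpl (22), which starts at 4411876 on chromosome 20. RT1-Bb was most often assigned like Fkbpl (24), followed by Umodl1 on chromosome 20 and Lgals5 (23 each), with Fuca2 at 22 and Txlnb at 21. In the v5 data RT1-Da and RT1-Db1 could be assigned as well. RT1-Da was assigned like Txlnb in 26 strains and like Fuca2 in 25, and RT1-Db1 like Txlnb in 25 and like Fuca2 in 26, while the 6 genes near the class II region were assigned like RT1-Da in 12 to 22 strains and like RT1-Db1 in 11 to 21. The order was not the same in every table: in v5 the gene AABR07001591.1, elsewhere on chromosome 1, was assigned like Cd74 in 26 strains and Txlnb in 25, and in v6 Hcar2 on chromosome 12 reached 27, as did Txlnb.

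**Figure D5:**
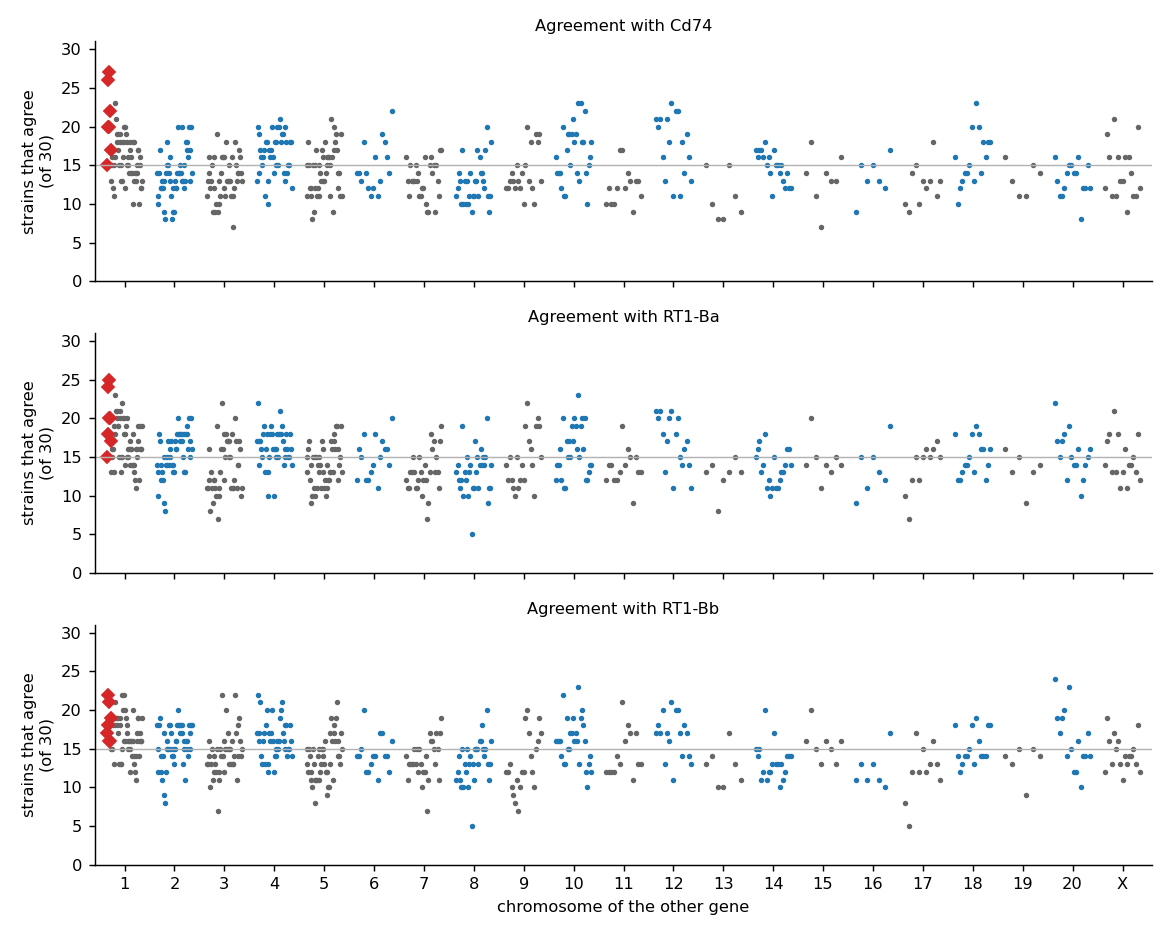
Number of 30 HXB/BXH strains in which a gene and Cd74, RT1-Ba or RT1-Bb were nearest to the same progenitor (vertical axis, strains), for the positioned genes of the v7.1 table called between BN-Lx/Cub and SHR/OlaIpcv, in order along each chromosome (horizontal axis). Each point is a gene other than the 8 members, the line marks 15 strains, and red diamonds are 7 genes of an interval on chromosome 1, of which Txlnb (27) and Fuca2 (26) are highest for Cd74.

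The interval from 5 to 16 Mb of chromosome 1 was set after these values were seen. Its 7 genes were assigned like Cd74 in 15 to 27 strains, among them Tnfaip3, an inhibitor of NF-kB signalling, in 22. Ifngr1, which encodes a chain of the receptor for interferon gamma, the classical inducer of Ciita, lies in the same interval. It was not called over the HXB/BXH strains (adjusted p = 0.141) or between the progenitors (-0.28, SE 0.13, adjusted p = 0.211, limma), and its strain means correlated with those of Cd74 at -0.26 in the family. Over 74 strains Fuca2 was the gene most negatively correlated with Cd74 (-0.62), RT1-Ba (-0.68), RT1-Da (-0.58) and RT1-Db1 (-0.56), although in the 19 FXLE/LEXF strains it gave -0.09 with Cd74.

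Other genes of the pathway were tested in the same fits. Of 27 further class II pathway genes, 21 were measured, and 6 of them differed between HXB/BXH strains, a share near the 26.5% of all genes called there, among them RT1-DOb (a chain of DO, which restrains DM), the cathepsin Ctss and the endoprotease Lgmn (both cut the invariant chain), the ubiquitin ligase Marchf8 and the NF-Y subunit Nfyc. Nfyc had an R2 of 0.86 and an adjusted p of 9.95e-20. The RFX genes Rfx5, Rfxap and Rfxank were not called in the family (adjusted p = 0.0571, 0.615 and 0.27). None of the 21 was called between BN-Lx/Cub and SHR/OlaIpcv (limma; 7 at an unadjusted p under 0.05), where Ctss gave 0.32 and RT1-DOb 0.34. Of 14 genes that neighbour the class II region, 13 were measured and 5 differed between HXB/BXH strains (26.5% of all genes did): the immunoproteasome subunits Psmb8 and Psmb9, the peptide transporter chains Tap1 and Tap2, and tapasin (Tapbp). None of the 13 was called between the progenitors (2 at an unadjusted p under 0.05), where their median difference was -0.22.

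Markers of cell types that can carry class II were followed beside the members. The brain markers were high in every strain (strain means of the list 14.37 to 14.64). Among B-cell markers Cd79a averaged 1.73 and Pax5 4.81. Among dendritic cell markers Clec9a, Xcr1 and Batf3 were low, with averages of 0.67, 1.10 and 1.11, while Flt3 averaged 9.29 and Zbtb46 9.24. All 12 microglial markers differed between strains, where 37.3% of all genes did, and the mean of the list ranged from 9.02 to 9.60 and correlated with Cd74 at 0.53 over 74 strains, 0.40 in HXB/BXH and 0.55 within strains. Over all strains, 5 of 7 border macrophage, 3 of 7 dendritic cell, 1 of 6 B-cell, 1 of 4 T-cell and 3 of 4 neutrophil and monocyte markers also differed, as did 3 of 5 of choroid plexus and meninges, 4 of 4 of blood, 10 of 10 of liver and 7 of 10 of brain. In HXB/BXH, where 26.5% of all genes differed, these counts were 5, 2, 3, 0 (limma; also 0 at an unadjusted p under 0.05), 3, 1, 4, 9 and 5 in the same order, and 9 of 12 for microglia. In FXLE/LEXF (7.47% of all genes) they were 0, 1, 0, 1, 1, 0, 0, 0 and 0, and 5 of 12 for microglia. At an unadjusted p under 0.05 (limma), border macrophages, B cells and brain had 2, 1 and 4 there. In the classic inbred strains (23.2% of all genes) the counts were 7, 3, 1, 0, 3, 0, 4, 10 and 4, and 11 of 12 for microglia. Choroid plexus and meninges had 3 there at an unadjusted p under 0.05 (limma). The mean of the 7 markers of border macrophages correlated with Cd74 at 0.13 over strains and 0.52 within them, and that of 7 dendritic cell markers at 0.45 and 0.39. The dendritic cell list mixes very low and high levels, so its mean cannot be read as the content of these cells. The correlation of the blood markers with Cd74 was -0.18 over strains and 0.43 within them. The part of each cell type in the differences between strains was not tested.

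The tables gave different values for some members. Over the 45 strains shared with v5, strain means of 7 members correlated with those of v7.1 at 0.82 to 0.93, but RT1-DMa at -0.13, with a mean of 5.49 in v5 against 8.27 in v7.1. Over the 58 strains shared with the v6 Ensembl table, RT1-Bb correlated at 0.52 and the other members at 0.97 to 0.99; RT1-Bb had a mean of 8.66 in v6 against 5.88. The v5 model of RT1-DMa and the v6 model of RT1-Bb thus ranked strains differently from the RefSeq models, and between BN-Lx/Cub and SHR/OlaIpcv RT1-DMa gave -0.11 in v5 against 0.54 in v7.1.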

How the data were processed

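Total RNA of whole brain was extracted with a column kit and sequenced by the authors from stranded, ribosome-depleted libraries. For the study's own reconstructed transcriptome its methods describe trimming with cutadapt 1.9.1, removal of ribosomal reads with Bowtie2 2.3.4.3, alignment with HISAT2 2.1.0 to rn6 genomes carrying each strain's single nucleotide variants, transcript assembly with StringTie and quantification with RSEM. The values deposited by the authors are on a log2 scale. For that transcriptome the methods describe the removal of 1 factor of unwanted variation and the regularized log transformation of DESeq2, and whether the tables used here were made in the same way is not given in the sources used here. The submitters' processing notes also name StringTie 1.3.5 and 2.2.1, RSEM 1.3.1 and 1.3.3, Bowtie2 2.4.5 and HISAT2 2.2.1. The tables hold no counts, so sequencing depth cannot be stated and no interval for counting error was computed. Library medians of the v7.1 values lay between 8.18 and 8.42.

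Strains, animal numbers and batches came from the sample labels. Libraries of 1 animal were averaged, 73 spike-in rows were left out, and strains were compared over animals with limma 3.58.1 in R 4.3.3, with p-values adjusted by Benjamini-Hochberg over all genes of a table at a 5% false discovery rate and no filter on low values. In the comparisons of strain pairs the fit held all strains. Each table was fitted alone. Strain means were described with mclust 6.1.1 (equal variances, up to 3 clusters), and recombinant strains were assigned to the nearer progenitor mean. The scripts were tested on simulated data. Alternatives were the v5 and v6 tables, batch as a covariate over single libraries with the animal as a block, the animal number as a block, leaving out each animal number in turn, leaving out doubted libraries, other variance settings, median centring and missing values over 30. Mixtures and correlations in the v5 and v6 tables were alternatives added after seeing the data.

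The 8 members and the gene lists were chosen with earlier results of these data known. Genes named are the members, the genes of these lists, the 3 genes of highest r with a member over strain means or within strains, and others that the text says were chosen after their values were seen. Animals with the same number in 2 strains did not deviate together (median r 0.02 over same-number pairs, -0.01 over others).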

Additional observations from a re-analysis of the deposited data

How the results depend on the processing

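Between BN-Lx/Cub and SHR/OlaIpcv, 3 members were called, against 5 in the v5 table (also without F344/NCrl 2 and SHRSP/A3NCrl 1, or without LE/Stm 3) and 5 with batch, from the characteristics or from the title, as a covariate, and 0 to 3 when each animal number was left out in turn. Between BN-Lx/Cub and BN/NHsdMcwi the count of 2 became 1 in v6 (with or without SHRSP/A3NCrl 1), 0 with either batch covariate and 0 to 2 with an animal number left out. Between SHR/OlaIpcv and SHRSP/A3NCrl the count of 0 became 3 in v5 (also without LE/Stm 3), 6 in v5 without the doubted libraries F344/NCrl 2 and SHRSP/A3NCrl 1, and 3 with the batch characteristic. Between SHR/OlaIpcv and WKY/NCrl the count of 2 (172 of 20859 genes called) became 7 in v5 under each choice of libraries (4504 to 4762 of 18309 genes), 4 in v6 (177 of 18644), 8 with the batch characteristic (4321), 6 with the title's batch (4324) and 0 to 2 with an animal number left out. Among FXLE/LEXF strains the count ranged from 2 to 6 with an animal number left out, where 514 to 1063 genes were called against 1558. Leaving out an animal number leaves fewer animals, and SHR/OlaIpcv with 1 where the number is 1. Otherwise the cause of these changes was not tested. Where no count of all genes stands beside a count of members, a change in the members cannot be told apart from a change over all genes.

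With the animal number as a replicate block, 1 member was called between BN-Lx/Cub and SHR/OlaIpcv and 1 between SHR/OlaIpcv and WKY/NCrl. The counts of the other comparisons stayed within 1.5 times, and counts of all genes under this setting are not given here. The deviations of same-number animals had a median r of 0.02, against -0.01 for other pairs. Of the same-number pairs 39.4% correlated above 0.1, but without that share for other pairs this does not decide whether the numbers pair animals.

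Members with more than 1 cluster over all strains numbered 1 in v5 and 1 in v6. In HXB/BXH they numbered 1 with a gain over 6 in the criterion, with unequal variances, in v5 and in v6, in FXLE/LEXF 0 with that gain and 2 without strains of 1 animal, and in the classic inbred strains 1 with that gain, with unequal variances and without strains of 1 animal, and 0 in v6. With the strains midway between progenitors unassigned, Cd74 and RT1-Ba were assigned alike in 19 of the 20 strains still assigned for both (95%). RT1-Ba and RT1-Bb were alike in 18 of 18 (100%). With all 30 strains assigned, these counts were 24 and 26. Every strain in which RT1-Ba and RT1-Bb differed was thus left out by this setting, so the 100% does not show closer agreement. The median r between members was 0.43 in v5 and 0.53 in v6. For the difference of BN-Lx/Cub from SHR/OlaIpcv, the sign turned in 3 members. It did so for Ciita without replicate 2 (-0.026), for RT1-DMa in v5 (-0.11 under each choice of libraries), and for RT1-DMb in v5 (0.19), in v6 (0.092), with the batch characteristic (0.033), the title's batch (0.053), the replicate block (0.015) and centred libraries (0.015), while leaving out an animal number gave -0.16 to 0.11. None of these differences was called in the v7.1 table. Of the alternatives for counts, clusters and correlations, 221 kept their value within the stated bounds and 45 did not. The F344/Stm and LE/Stm comparison without LE/Stm 2 was not run because no animal is left, and F344/NCrl 2 and SHRSP/A3NCrl 1 are not among the v7.1 libraries, so leaving them out was run in v5 and v6.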
